A study of Mus musculus with 16 samples.

Results

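RNA helicases, splicing factors and mRNA decay factors remodel, join, protect and degrade transcripts. The genes described here were taken by the stem of their symbol. They are the DEAD-box (Ddx) and DEAH-box or DExH (Dhx) helicases, the hnRNP, SR (Srsf, Srrm) and RBM proteins, spliceosome subunits (Snrn, Prpf, Sf3) and factors of 3' end processing (Cpsf, Cstf). With them stand the factors of deadenylation (Cnot, Pan2, Pan3), decapping (Dcp, Edc), exonucleolytic decay (Xrn, Exosc) and nonsense-mediated decay (Upf, Smg) and, among others, the CCCH zinc finger proteins (Zc3h, Zfp36). Rbm15 was left out by the rule. In all 81 of the 4943 genes that carry an m6A peak were members (77 symbols), with 139 of the 7069 peaks. Genes without a peak are not in the table, so many well-known members, among them Xrn1, Upf1, Cnot1 and Sf3b1, have no value: of 51 members listed by name, 23 were present.

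Peritoneal macrophages (PMs) came from WT and Adap-/- mice, C57BL/6 littermates matched for sex and aged 6 to 8 weeks. They were collected 3 days after 3% thioglycolate was injected, and were either mock-treated or given LPS at 1 ug/ml for 6 h. All groups therefore consist of elicited PMs in culture, and Adap (listed as Fyb1) is missing from every cell of the knockout mice and not from PMs alone. There were 2 replicates in every one of the 4 groups. From each came an input library and a library of RNA pulled down with an antibody against m6A (IP), 16 libraries in total. The labels do not say whether replicates came from separate animals, so the p-values measure the spread between samples.

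As background, RIG-I (encoded by Ddx58) and LGP2 (Dhx58) are helicases that bind foreign double-stranded RNA and feed the interferon response, whose genes they also belong to. Tristetraprolin (Zfp36) and its relatives bind AU-rich elements of cytokine mRNAs and recruit the CCR4-NOT deadenylase, after which decapping and exonucleases remove the message, while Regnase-type proteins such as Zc3h12c cut stem-loops in such mRNAs. In activated macrophages these brakes are themselves induced together with the cytokines they limit.

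The level of a gene is its input reads summed over all its peaks, in counts scaled to a common library size with TMM factors (CPM), and m6A enrichment is the ratio of IP to input reads on a peak after the same scaling. Changes in level are log2 fold changes from an edgeR quasi-likelihood fit, and a gene was called at a Benjamini-Hochberg adjusted p below 0.05 over all 4742 genes tested. Of the members 78 were tested, and Dhx9, Zfp36l2 and Snrnp25 had too few reads. A peak annotated to several genes counts for each of them: 24 members had at least 1 such shared peak and 19 had only shared ones, and Zc3h11a stands as 2 genes with the same 6 peaks. Levels were compared between samples, not between genes, since peak lengths differ (median 175 bases in members, from 50 to 35152).

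The knockout was visible in the targeted gene. Fyb1 was at 243 and 257 CPM in WT mock, 349 and 377 in WT LPS, 46.7 and 36.9 in Adap-/- mock and 41.5 and 35.7 in Adap-/- LPS PMs. The genotypes did not overlap, and the log2 difference was −2.58 in mock and −3.22 in LPS PMs (edgeR quasi-likelihood, adjusted p = 8.54e-09 and 5.65e-10). Of 8 macrophage markers 7 were in the table, with a summed level of 8719 to 10603.3 CPM over all input libraries. Single macrophage markers moved: with LPS Mertk, Fcgr1 and Cd14 rose and Lyz2 fell in both genotypes, and Adgre1 rose in Adap-/- PMs. After LPS Cd14 was higher (0.49) and Mertk and Fcgr1 were lower (−0.32 and −1.28) in Adap-/- than in WT PMs, while none of the 7 was called in mock PMs. A marker without an m6A peak has no value, so its absence does not show whether its cells were present. No marker of T cells, eosinophils, mast cells or fibroblasts and mesothelium was in the table. Among 8 neutrophil markers only Csf3r was, at 123 to 164 CPM in mock and 306 to 387 CPM in LPS PMs; among 7 B cell markers only Cd22 was, at 129 to 148 CPM in mock and 32.9 to 49.6 CPM in LPS PMs; and among 5 dendritic cell markers only Ccr7. Csf3r, Cd22 and Ccr7 moved with LPS as well, and the part of all these markers in the results was not tested. In bulk samples a smaller share of cells that express a gene and less RNA per cell cannot be told apart. The 10 control genes of the LPS response, Tnf and Il6 among them, rose in both genotypes, with a median log2 change of 8.09 in WT and 7.75 in Adap-/- PMs.

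Several IP libraries stood apart from their groups. LPS raised 302 peaks by more than 4 on the log2 scale in the input of both genotypes, 2 of them on members. In the mock input libraries these peaks held 1.42% to 2.09% of the mean level of the LPS input libraries. In the mock IP libraries they held 5.00% (WT replicate 2) and 7.14% (Adap-/- replicate 1) of the LPS IP level, but 71.5% in WT replicate 1 and 58.7% in Adap-/- replicate 2. The 22 peaks that LPS lowered as strongly held 18.4% and 9.87% of the mock level in the WT LPS IP libraries, against 3.50% and 3.60% in the Adap-/- LPS IP libraries and 2.43% to 4.40% in the LPS input libraries. The input libraries of a group were alike, with Spearman correlations across the 7069 peaks, which are not independent, of 0.982 to 0.987, while the IP libraries reached 0.855 in WT mock, 0.875 in Adap-/- mock, 0.963 in WT LPS and 0.946 in Adap-/- LPS PMs. The levels given next rest on input libraries only, and the m6A changes that use the 2 mock libraries are also given with both of them left out.

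**Figure D1:**
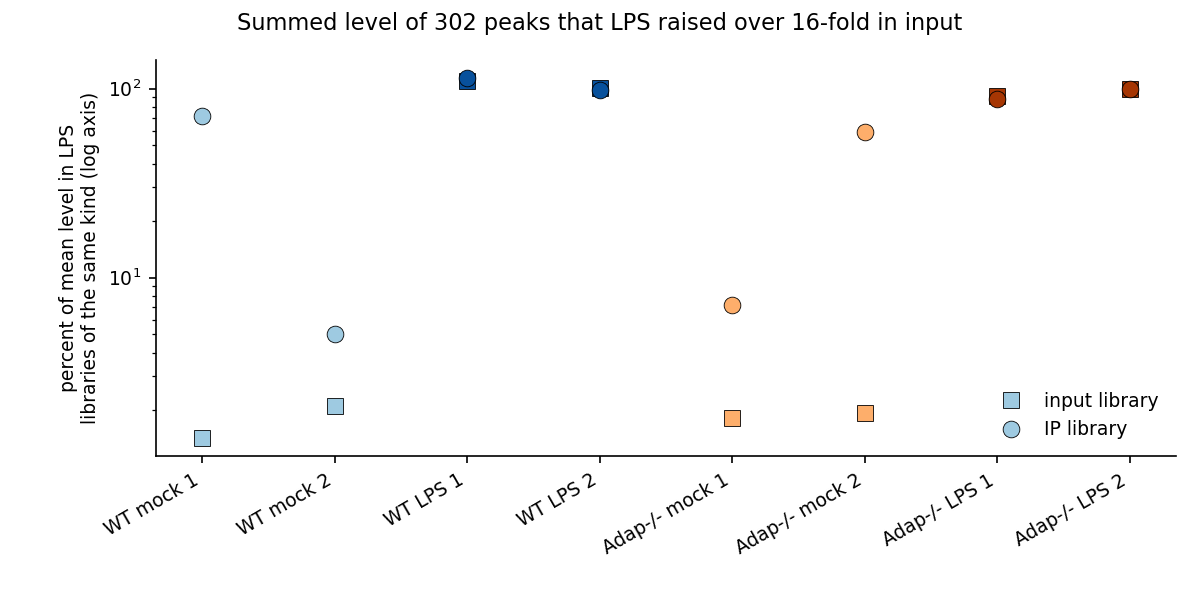
Summed level of the 302 peaks that LPS raised in input, in each library, as a percent of the mean of the 4 LPS libraries of the same kind (squares, input; circles, IP; log axis). The IP libraries of WT mock replicate 1 (71.5%) and Adap-/- mock replicate 2 (58.7%) lie near the LPS libraries, while all mock input libraries lie at or below 2.09%.

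LPS changed the level of a large part of the members, in both directions. In WT PMs 21 members rose and 13 fell (26.9% and 16.7% of 78), where of all genes tested 30.3% rose and 28.9% fell. In Adap-/- PMs 23 rose and 10 fell (29.5% and 12.8%), against 28.5% and 26% of all genes. The median change of the members was 0.03 in WT and 0.09 in Adap-/- PMs, beside −0.03 over all genes in both. The TMM factors were 1.39 to 1.51 in the mock and 0.651 to 0.737 in the LPS input libraries. All CPM values and LPS changes given here rest on these factors. Without them every LPS change would be lower, by more than with upper-quartile scaling, and small increases would not remain. Which scaling is right was not tested. The comparisons in WT and in Adap-/- PMs have no library in common, and 20 members rose and 7 fell in both, 25.6% and 8.97% of those tested (25.8% and 22.3% of all genes). Upper-quartile scaling moved the median of all genes to −0.32 in WT and −0.31 in Adap-/- PMs and turned the balance of the calls, to 12 higher and 28 lower in WT (15.4% and 35.9%, against 23.3% and 41.7% of all genes) and 10 higher and 21 lower in Adap-/- PMs (12.8% and 26.9%, against 21.2% and 39.6%). Under both scalings the shares of members lay below those of all genes, other than the share that rose in Adap-/- PMs. That share lay above with TMM and below with upper-quartile scaling. The differences between these shares were not tested. The counts by family and list below are to be read against the same shares of all genes. Zc3h11a, 2 genes on the same reads, counts as 2 of the members that rose. With it counted once, 20 of 77 rose in WT and 22 of 77 in Adap-/- PMs. The members that were no longer higher under upper-quartile scaling were Cnot4, Ddx6, Ddx21, Edc3, Smg8, Snrnp35 and Zc3h11a in both genotypes, Smg1 in WT and Ddx54, Dhx8, Rbm25, Zc3h13 and Zc3h15 in Adap-/- PMs.

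**Figure D2:**
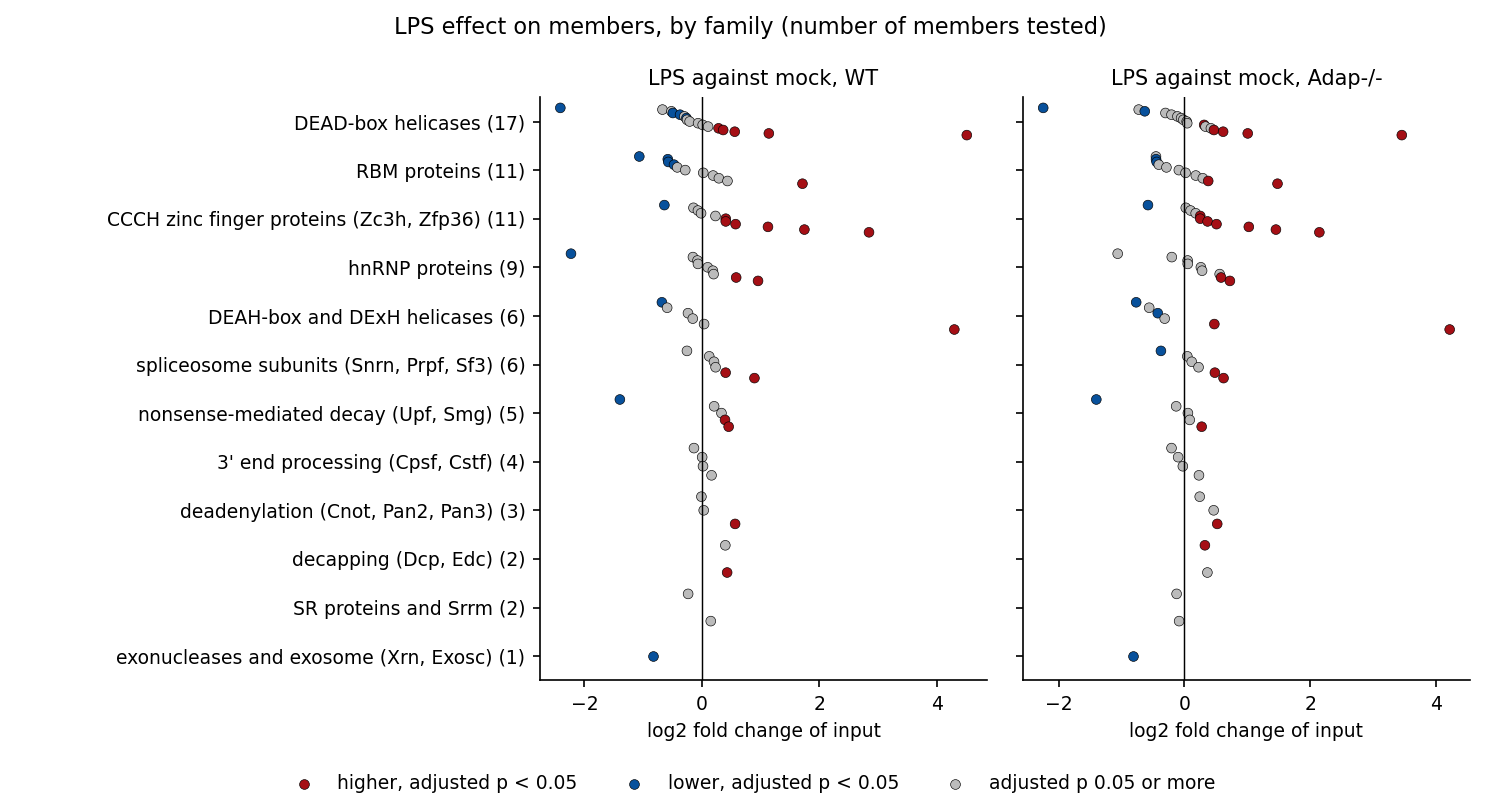
Log2 fold change of tested members with LPS in WT and in Adap-/- PMs, by family (12 families; number of members tested in brackets; colours mark an adjusted p below 0.05). The changes ran from −2.41 (Ddx39a) to 4.51 (Ddx58) in WT PMs and from −2.25 (Ddx39a) to 4.22 (Dhx58) in Adap-/- PMs; upper-quartile scaling shifts all of them down by about 0.3 and so turns the small positive ones negative.

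The promoters of members that rose together were searched for short motifs of the factors that LPS is known to engage. Of the 19 symbols that rose in both genotypes, 17 had a promoter window in RefSeq (GRCm38.p6), 18 windows in all, each from 250 bases before to 50 bases after the start. Dhx58 and Ddx6 have no entry. The set rests on the calls with TMM scaling and includes symbols named above whose call was lost with upper-quartile scaling. Edc3 is among them, and its single-gene peak went the other way, as given below. Hnrnpd was measured only on peaks shared with other genes. The motifs, read on both strands, were GAAANNGAAA and GAAANGAAA (like the interferon-stimulated response element), GGGNNNTTCC (kappa B-like), TGACTCA (AP-1-like), TGACGTCA (the cAMP response element) and the CArG box, bound by serum response factor. They occur in 3.44%, 3.17%, 5.56%, 5.20%, 1.79% and 1.63% of all 32851 windows. Among the 18 windows, GAAANNGAAA and GAAANGAAA were each found in 1 (Ddx58 both times), GGGNNNTTCC in 1 (Edc3), the CArG box in 2 (Hnrnpd and Zfp36) and neither TGACTCA nor TGACGTCA in any. The stretch around the start of Ddx58 (chr4:40239811-40239925, minus strand), and the 100 bases before the start of Zfp36 (chr7:28379229-28379328, minus strand) and of Zc3hav1 (chr6:38354604-38354703, minus strand) are printed as examples. Ddx58 and Zfp36 hold motif matches there, and Zc3hav1, which rose more than Zfp36, holds none. The windows of Hnrnpd and Edc3, each with a match from base 1 of the transcript on, are not printed. Capitals mark the motif matches: in Ddx58 a GAAANGAAA 60 bases before the start and, on the opposite strand, a GAAANNGAAA from base 3 of the transcript on; in Zfp36 a CArG box 58 bases before the start. The lack of a match in the window of Zc3hav1 says only that these letters are not in it.
Ddx58: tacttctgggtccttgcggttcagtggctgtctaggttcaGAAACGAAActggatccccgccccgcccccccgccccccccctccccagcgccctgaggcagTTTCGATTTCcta
Zfp36: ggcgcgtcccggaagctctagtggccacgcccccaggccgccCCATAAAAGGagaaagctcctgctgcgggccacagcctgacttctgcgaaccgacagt
Zc3hav1: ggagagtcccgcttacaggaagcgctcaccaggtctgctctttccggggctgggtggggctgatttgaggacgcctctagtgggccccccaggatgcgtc

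The RNA-sensing helicases showed the highest increases of all members. Dhx58 was at 51.7 and 50.1 CPM in WT mock, 1031 and 969 in WT LPS, 42.2 and 44.2 in Adap-/- mock and 780.1 and 834 in Adap-/- LPS PMs, and Ddx58 at 16.6 and 17.5 CPM in WT mock, 374 and 403 in WT LPS, 33.1 and 28.6 in Adap-/- mock and 332 and 346 in Adap-/- LPS PMs. LPS and mock libraries lay far apart in both genotypes for both genes. Dhx58 rose by 4.30 (SE 0.11) in WT and 4.22 (SE 0.11) in Adap-/- PMs on the log2 scale, and Ddx58 by 4.51 (SE 0.13) and 3.46 (SE 0.12), with an adjusted p of at most 5.15e-13 in the edgeR quasi-likelihood fit.

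The LPS response of Ddx58 differed between the genotypes. Its increase was smaller in Adap-/- PMs, with a log2 difference of −1.05 (SE 0.18; edgeR quasi-likelihood test of the difference, adjusted p = 0.00588). Both Adap-/- mock libraries were higher than both WT mock libraries (0.85, adjusted p = 0.00131), whereas after LPS the Adap-/- libraries lay below the WT ones without passing the test (−0.20, adjusted p = 0.2). Ddx58 was the 1 member of 78 called in this comparison by edgeR, and it was lower, while DESeq2 called 2, Ddx58 and Zc3h12c; of all genes 0.358% responded more and 1.29% less in Adap-/- PMs. Leaving out 1 replicate at a time gave −0.93 to −1.14, and without Adap-/- mock replicate 1 (−0.93) the adjusted p was 0.0504, and Zc3h12c was then the member called. The Adap-/- mock libraries enter both the LPS response and the mock difference, so these are not separate observations. Dhx58 showed a difference of −0.07 (adjusted p = 0.88). Of the LPS controls, 4 interferon-induced genes, given because the sensors belong to the same response, went the same way as Ddx58. Ifit1 differed by −1.56, Ifit2 by −1.39, Rsad2 by −1.15 and Isg15 by −0.91. The other 6 controls, Cxcl10 among them, did not pass the test.

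Most genes of RNA sensing outside the symbol rule rose as well. Of 10 listed, 8 were in the table, and in both genotypes 7 rose and 1 fell, under upper-quartile scaling too, with a median change of 3.92 in WT and 3.22 in Adap-/- PMs. Ifih1, which encodes the sensor MDA5, was at 21.7 and 23.2 CPM in WT mock, 726 and 780.1 in WT LPS, 44.9 and 39.3 in Adap-/- mock and 537 and 545 in Adap-/- LPS PMs. It rose in both genotypes, by 5.07 in WT and 3.68 in Adap-/- PMs, and the responses differed by −1.38 (edgeR, adjusted p = 0.000295). Tlr3, the endosomal receptor of double-stranded RNA, differed by −1.02 (adjusted p = 0.0115), and no other gene of the 8 did. Oas1a, an oligoadenylate synthetase activated by double-stranded RNA, rose by 5.52 and 4.78. After LPS 4 of the 8 were lower and 0 higher in Adap-/- than in WT PMs, against 9.78% and 6.03% of all genes. In mock PMs 0 were lower and 1 was higher, against 8.65% and 8.71% of all genes. Of the 4, Tlr3 (−0.69), Ifih1 (−0.48) and Oas1a (−0.34) differed by the largest amounts after LPS. Dhx58 was lower after LPS by a similar amount (−0.31, edgeR, adjusted p = 0.0287). The call of Dhx58 was lost with DESeq2 (−0.32), with single-gene peaks (−0.22) and without any 1 of 6 replicates, the value then lying between −0.26 and −0.36.

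**Figure D3:**
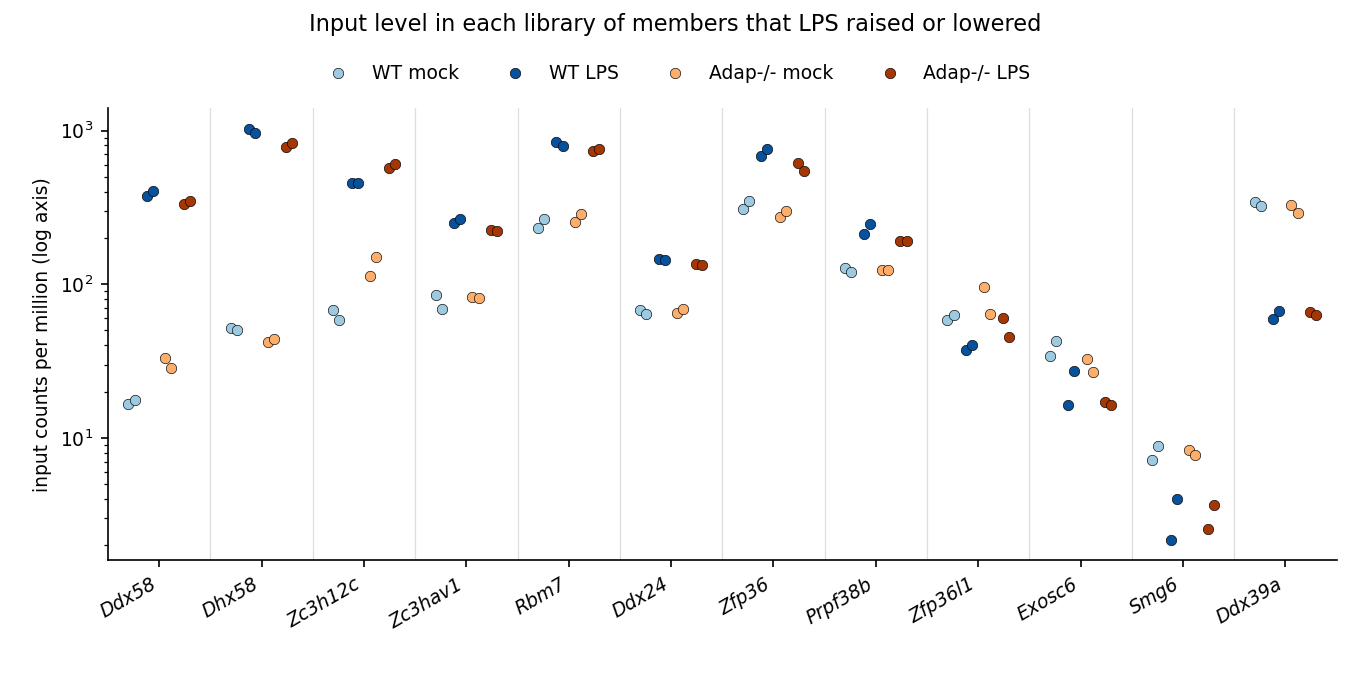
Input level (CPM, log axis) in each of the 8 input libraries of 12 members that LPS raised (left) or lowered (right). The LPS and mock libraries of a genotype do not overlap for any of the 12, as the rule that named them required. The levels run from Dhx58 (51.7 and 50.1 CPM in WT mock, 1031 and 969 CPM in WT LPS PMs) to Smg6 (7.16 and 8.89 CPM, 2.17 and 3.98 CPM).

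Among the CCCH zinc finger proteins, 6 of 11 tested rose with LPS in WT PMs and 1 fell, and 7 rose and 1 fell in Adap-/- PMs. Of all genes 30.3% rose and 28.9% fell in WT and 28.5% and 26% in Adap-/- PMs. With Zc3h11a counted once, 5 and 6 of 10 rose. With upper-quartile scaling 4 rose and 3 fell in WT and 3 rose and 1 fell in Adap-/- PMs. Zc3h12c, a ribonuclease of the Regnase family, was at 68.3 and 58.2 CPM in WT mock, 454 and 455 in WT LPS, 113 and 150.2 in Adap-/- mock and 567 and 603 in Adap-/- LPS PMs. It rose by 2.84 (SE 0.13) in WT and 2.15 (SE 0.12) in Adap-/- PMs and was, by edgeR, the only one of the members called higher with LPS that was also called higher in Adap-/- PMs both in mock and after LPS. The mock difference between genotypes was 1.06 (adjusted p = 0.000135) and that after LPS 0.36 (adjusted p = 0.0455). The latter call was lost with DESeq2 (0.36) and without any 1 of the 4 LPS replicates (0.32 to 0.41). The difference between its LPS responses, −0.70 for Adap-/- minus WT PMs, missed the threshold in edgeR (adjusted p = 0.0653) and passed it with DESeq2 (−0.71, adjusted p = 0.0300) and without WT mock replicate 1 (−0.80) or Adap-/- mock replicate 1 (−0.87).

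Zc3hav1, the antiviral protein ZAP that binds CpG-rich RNA, was at 85.2 and 68.7 CPM in WT mock, 252 and 264 in WT LPS, 82.1 and 81.0 in Adap-/- mock and 225 and 223 in Adap-/- LPS PMs. All LPS libraries exceeded all mock libraries, with changes of 1.74 and 1.46 (SE 0.12 and 0.11). Zfp36 (tristetraprolin) was at 309 and 349.9 CPM in WT mock, 681 and 755 in WT LPS, 272 and 299.9 in Adap-/- mock and 614 and 549.6 in Adap-/- LPS PMs and rose by 1.12 and 1.02 (SE 0.11 and 0.11). Its paralogue Zfp36l1 went the other way, at 58.6 and 63.0 CPM in WT mock, 37.6 and 40.5 in WT LPS, 96.0 and 64.1 in Adap-/- mock and 60.6 and 45.2 in Adap-/- LPS PMs. Zfp36l1 fell by 0.64 in WT and 0.58 in Adap-/- PMs (adjusted p = 0.00905 and 0.0116), and within each genotype its LPS and mock libraries did not overlap, although across genotypes they did. The call in WT was lost without WT LPS replicate 1 (−0.58) and that in Adap-/- PMs without Adap-/- mock replicate 1 (−0.27) or Adap-/- LPS replicate 2 (−0.40). Zfp36l2 had no input reads on its peak. The adjusted p was at most 4.11e-07 for Zfp36 and 1.43e-08 for Zc3hav1 in the edgeR quasi-likelihood fit.

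Of 3 genes of deadenylation and 2 of decapping tested, 1 each was called higher with LPS, in both genotypes. Cnot4, a ubiquitin ligase of the CCR4-NOT complex that is counted here by its symbol, was at 38.6 and 36.9 CPM in WT mock, 54.7 and 57.1 in WT LPS, 43.3 and 53.6 in Adap-/- mock and 70.5 and 68.9 in Adap-/- LPS PMs and rose by 0.56 and 0.52 (adjusted p = 0.00262 and 0.00319). It was the 1 of 3 tested that passed in either genotype, and the call was lost with upper-quartile scaling (0.28 and 0.25) and, in Adap-/- PMs, without Adap-/- mock replicate 1 (0.37). Pan3, of the poly(A) nuclease, had values of −0.01 and 0.24 (adjusted p = 0.969 and 0.25). Of the decapping factors Edc3 was called higher, with 0.43 and 0.33, but it shares a peak with another gene, and the single-gene peak alone gave −0.38 and −0.27; upper-quartile scaling also removed the calls (0.14 and 0.05). The WT call was also lost without WT mock replicate 1 (0.36), and the Adap-/- call with DESeq2 (0.34) and without any 1 of 3 replicates (0.16 to 0.36). Dcp1a, the decapping activator, had 0.40 and 0.37 with 4.99 to 9.94 CPM.

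In nonsense-mediated decay, 2 of 5 members rose and 1 fell in WT PMs, and 1 rose and 1 fell in Adap-/- PMs; with upper-quartile scaling none rose in either genotype. Smg6, the endonuclease of the pathway, was at 7.16 and 8.89 CPM in WT mock, 2.17 and 3.98 in WT LPS, 8.40 and 7.76 in Adap-/- mock and 2.54 and 3.64 in Adap-/- LPS PMs. These levels are low. Smg6 fell by 1.40 in both genotypes (SE 0.41 and 0.40, edgeR quasi-likelihood, adjusted p = 0.00751 and 0.00732). That its LPS and mock libraries did not overlap was required by the rule that named it. The call was lost without WT LPS replicate 1 in WT (−1.003) and without Adap-/- LPS replicate 1 in Adap-/- PMs (−1.14). Smg1, the kinase that phosphorylates UPF1, rose by 0.45 in WT PMs (adjusted p = 0.00402), a call lost with upper-quartile scaling (0.17) and without WT LPS replicate 2 (0.35), and had 0.06 in Adap-/- PMs, with no shown difference between the responses (−0.40, adjusted p = 0.312). Upf2 had 0.33 and −0.13 and passed in neither genotype. Exosc6, a core subunit of the RNA exosome and the only Exosc gene present, fell by 0.84 and 0.82, from 34.3 and 42.8 to 16.5 and 27.1 CPM in WT and from 32.8 and 26.7 to 17.2 and 16.4 CPM in Adap-/- PMs. Its 2 peaks are shared with Aars1, and the calls were lost without WT LPS replicate 1 (−0.50) and without Adap-/- mock replicate 1 (−0.67).

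Of 39 further mRNA decay genes listed, 16 were tested, and 7 rose and 3 fell in each genotype (43.8% and 18.8%; 30.3% and 28.9% of all genes in WT, 28.5% and 26% in Adap-/- PMs). The 7 that rose were the same genes in both, whereas of those that fell only Ago2 was, with Tob1 and Tob2 in WT and Tnrc6b and Dis3l in Adap-/- PMs. Upper-quartile scaling gave 4 and 4 in WT and 5 and 6 in Adap-/- PMs. The medians were 0.12 and 0.10. In WT PMs the increases were led by Lsm14a (from 2.30 and 1.35 to 11.5 and 15.5 CPM), a P-body protein, by Tut7, a terminal uridylyltransferase (1.82 and 1.61), and by N4bp1, a ribonuclease (1.72 and 1.38). Ago2, the slicer of microRNA-guided silencing, fell by 0.72 and 0.80. In the other partner lists 12 genes were tested, 6 of splicing, 4 of cleavage and polyadenylation and 2 of the exon junction and export. Of the 6 of splicing, 1 rose and 1 fell in WT PMs and none rose and 1 fell in Adap-/- PMs. The gene that fell in both was Srpk2, a kinase of SR proteins, by 2.46 and 1.85, from 23.5 and 23.2 to 2.17 and 6.51 CPM in WT PMs. The splicing gene that rose in WT PMs was Tardbp (0.37). Of the remaining 6, Casc3 of the exon junction (0.47) and Rbbp6 of cleavage (0.29) rose in WT PMs and the poly(A) polymerase Papola fell by 0.37, and in Adap-/- PMs the export factor Nxt1 fell by 0.42. The calls of Tardbp (0.09), Casc3 (0.19) and Rbbp6 (−0.00298) were lost with upper-quartile scaling, and that of Papola with RLE scaling (−0.35).

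The counts for splicing factors in input differed by family. None of the 2 SR genes and 4 genes of 3' end processing tested passed in either LPS comparison by edgeR (upper-quartile scaling called 1 of each lower in each genotype). Of the 6 spliceosome subunits, 2 rose in WT PMs, and 2 rose and 1 fell in Adap-/- PMs; with upper-quartile scaling it was 1 and 1 in each genotype. Prpf38b was at 127 and 119 CPM in WT mock, 212 and 246 in WT LPS, 124 and 124 in Adap-/- mock and 190.1 and 192 in Adap-/- LPS PMs and rose by 0.89 and 0.62 (adjusted p = 2.08e-06 and 0.000112). All its LPS libraries exceeded all its mock libraries. Of 9 hnRNP genes 2 rose and 1 fell in WT PMs, and 2 rose and 0 fell in Adap-/- PMs (upper-quartile scaling: 2 and 3, 2 and 2). Hnrnpd (AUF1), which binds AU-rich elements, rose by 0.95 and 0.72, from 24.04 and 18.9 to 40.1 and 43.4 CPM in WT and from 28.1 and 35.4 to 51.0 and 54.3 CPM in Adap-/- PMs, on peaks that it shares with other genes. Hnrnph2 rose by 0.58 in both genotypes. Sf3b5, the subunit that fell in Adap-/- PMs (by 0.37), lost its call with DESeq2 (−0.36) and without any 1 of 3 Adap-/- replicates (−0.32 to −0.42). Hnrnpl, a regulator of CD45 splicing, fell by 2.23 in WT PMs, but from 6.39 and 4.85 to 0.621 and 1.81 CPM (2 and 5 reads after LPS), and the call was lost without WT LPS replicate 1 (−1.62). Hnrnpa2b1, an hnRNP linked to m6A, had −0.07 and 0.05, at 114 to 135 CPM.

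The RBM genes moved both ways. Rbm7, the RNA-binding subunit of the nuclear exosome targeting complex, was at 233 and 267 CPM in WT mock, 844 and 792 in WT LPS, 253 and 284 in Adap-/- mock and 738 and 763 in Adap-/- LPS PMs. The LPS libraries exceeded the mock libraries in both genotypes, with changes of 1.71 and 1.48 (SE 0.10 and 0.10; edgeR adjusted p = 4.85e-10 and 3.18e-09). In WT PMs 1 of 11 RBM genes rose and 4 fell, in Adap-/- PMs 2 rose and 2 fell, and with upper-quartile scaling 1 rose in each and 6 and 5 fell. The fallen ones included Rbm14 (by 0.57 and 0.45) and Rbm4 (ENSMUSG00000096370, by 0.58 and 0.44), and in WT PMs Rbm4b (by 1.07). All 3 peaks of Rbm14 and the only peak of Rbm4b are among the 5 peaks of Rbm4, so these 3 calls rest in part on the same reads. The remaining decrease in WT PMs was that of 1 of 2 genes named Rbm12 (ENSMUSG00000098950, −0.48), which share 2 peaks. The calls of Rbm14 and Rbm4 in Adap-/- PMs were lost without Adap-/- LPS replicate 1 (both −0.34), and that of Rbm4b without WT mock replicate 2 (−0.88) or WT LPS replicate 2 (−0.89).

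Of 17 DEAD-box helicases 5 rose and 4 fell with LPS in WT PMs, and 5 rose and 2 fell in Adap-/- PMs (upper-quartile scaling: 3 and 8, 2 and 5). Beside Ddx58, Ddx24, a nucleolar protein, was at 67.5 and 63.8 CPM in WT mock, 146 and 144 in WT LPS, 64.6 and 69.4 in Adap-/- mock and 135 and 134 in Adap-/- LPS PMs. It rose by 1.14 and 1.01 (SE 0.11 and 0.11), and no LPS library overlapped a mock library. Ddx39a, a helicase of mRNA export, was at 344 and 323 CPM in WT mock, 59.0 and 66.5 in WT LPS, 326 and 289 in Adap-/- mock and 66.0 and 63.4 in Adap-/- LPS PMs. It fell by 2.41 and 2.25 (edgeR adjusted p = 2.12e-11 and 5.33e-11), the largest decrease among members in both genotypes, but its only peak is shared with Adgre5, and the reads cannot be assigned to either gene. Ddx21, which acts in ribosomal RNA synthesis, rose by 0.36 in WT and 0.62 in Adap-/- PMs. Neither call was kept with upper-quartile scaling (0.07 and 0.34); the WT call was also lost with DESeq2 (0.39), with single-gene peaks (0.33) and without any 1 of 5 replicates (0.19 to 0.43). Ddx28 fell by 0.50 and 0.63 on peaks it shares, a call lost in WT without WT LPS replicate 2 (−0.35). Ddx3x, which promotes translation of structured mRNAs, had −0.37 in WT PMs (adjusted p = 0.0238; lost with DESeq2, −0.35, and without WT mock replicate 2, −0.27, or WT LPS replicate 1, −0.21) and −0.02 in Adap-/- PMs, with a difference between the responses of 0.36 (adjusted p = 0.471). The paralogues Ddx5 and Ddx17 passed in neither genotype (−0.25 and 0.04; −0.30 and −0.30). Of 6 DEAH-box and DExH helicases 1 rose and 1 fell in WT PMs, and 2 rose and 2 fell in Adap-/- PMs (upper-quartile scaling: 1 and 3 in each). Other than Dhx58, Dhx32 fell by 0.68 in WT PMs and Dhx34 by 0.77 and Dhx33 by 0.42 in Adap-/- PMs, each lost with DESeq2 (−0.66, −0.76 and −0.41) and without any 1 of 3, 2 and 2 replicates (−0.45 to −0.75, −0.61 to −0.65 and −0.27 to −0.30).

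Between genotypes fewer members differed, at shares near or below the background. In mock PMs Adap-/- levels exceeded WT levels for 8 members and fell short for 3 (10.3% and 3.85% of 78), against 8.71% and 8.65% of all genes; with Zc3h11a counted once, 7 of 77 were higher. After LPS the counts were 4 and 3 (5.13% and 3.85%), against 6.03% and 9.78%. The median difference of the members was 0.02 in mock (all genes 0.01) and 0.15 after LPS (all genes −0.01), where it was 0.05 without Adap-/- LPS replicate 2 and 0.12 without WT LPS replicate 1. Hnrnph1, Zc3h12c and Srrm2 were higher and Sf3b5 lower in both comparisons, 3.85% and 1.28% of the members against 2.85% and 4.01% of all genes. These comparisons have no library in common but share their groups with the LPS comparisons.

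Hnrnph1, a splicing regulator that binds G-rich sequences, was at 129 and 128 CPM in WT mock, 127 and 148 in WT LPS, 177 and 232 in Adap-/- mock and 199 and 225 in Adap-/- LPS PMs. All Adap-/- libraries exceeded all WT libraries, by 0.67 (SE 0.13) in mock and 0.62 (SE 0.13) after LPS (edgeR quasi-likelihood, adjusted p = 0.00242 and 0.00464). Srrm2, a large scaffold protein of nuclear speckles, was at 89.0 and 89.4 CPM in WT mock, 91.6 and 107 in WT LPS, 146 and 154 in Adap-/- mock and 123 and 154 in Adap-/- LPS PMs. Its Adap-/- libraries were likewise all above its WT libraries, by 0.75 (SE 0.12) and 0.48 (SE 0.13; adjusted p = 0.000849 and 0.0184). Smg1 was at 91.6 and 94.3 CPM in WT mock, 119 and 136 in WT LPS, 144 and 150.2 in Adap-/- mock and 140.4 and 166 in Adap-/- LPS PMs and was higher in Adap-/- mock PMs by 0.66 (adjusted p = 0.00128), with 0.26 after LPS (adjusted p = 0.15). Of the partner genes Son, which also builds nuclear speckles, was higher in both comparisons (0.40 and 0.44), at 559 to 672 CPM in WT and 784 to 898 CPM in Adap-/- PMs.

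Sf3b5, a small subunit of the SF3b complex that recognizes the branch point, was at 133 and 169 CPM in WT mock, 141 and 111 in WT LPS, 118 and 108 in Adap-/- mock and 84.6 and 90.0 in Adap-/- LPS PMs. It was lower in Adap-/- PMs, with differences of −0.42 in mock and −0.54 after LPS (adjusted p = 0.0439 and 0.0184). Zc3h13, a subunit of the m6A writer complex, was higher after LPS (78.4 and 98.04 CPM against 57.5 and 63.3 CPM in WT; 0.54, adjusted p = 0.0145) and had 0.40 in mock (adjusted p = 0.057). Cstf1, of the cleavage stimulation factor, was lower after LPS (44.8 and 39.4 CPM against 54.7 and 64.3 CPM in WT; −0.49, adjusted p = 0.0288), and Snrnp35 and Zc3h10 were lower in mock PMs (−0.36 and −0.39, adjusted p = 0.0351 and 0.0496).

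With 2 replicates a group, many of these differences depended on single libraries. After LPS the 7 calls became 2 with DESeq2, 1 without WT LPS replicate 1, 4 without Adap-/- LPS replicate 1 and 0 without Adap-/- LPS replicate 2, where edgeR left Hnrnph1 at 0.54, Zc3h13 at 0.38, Srrm2 at 0.31, Sf3b5 at −0.58 and Cstf1 at −0.40, all in their first direction; without WT LPS replicate 1 Hnrnph1, Zc3h13, Srrm2 and Sf3b5 lost theirs as well (0.52, 0.47, 0.37 and −0.35), and Cstf1 was called in 3 of 8 such settings (−0.37 to −0.61 over all 8). In mock PMs DESeq2 called 5 members in place of 11, all of them higher, and leaving out 1 replicate gave 5 to 11. There Ddx58, Zc3h12c, Srrm2 and Smg1 were called in all 8 settings that leave out 1 replicate, Hnrnph1 in 7 (0.46 without Adap-/- mock replicate 2), Sf3b5 in 5 (−0.24 without WT mock replicate 2), Snrnp35 in 4 (−0.27 without Adap-/- mock replicate 2) and Zc3h10 in 1 (−0.19 without Adap-/- mock replicate 2).

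**Figure D4:**
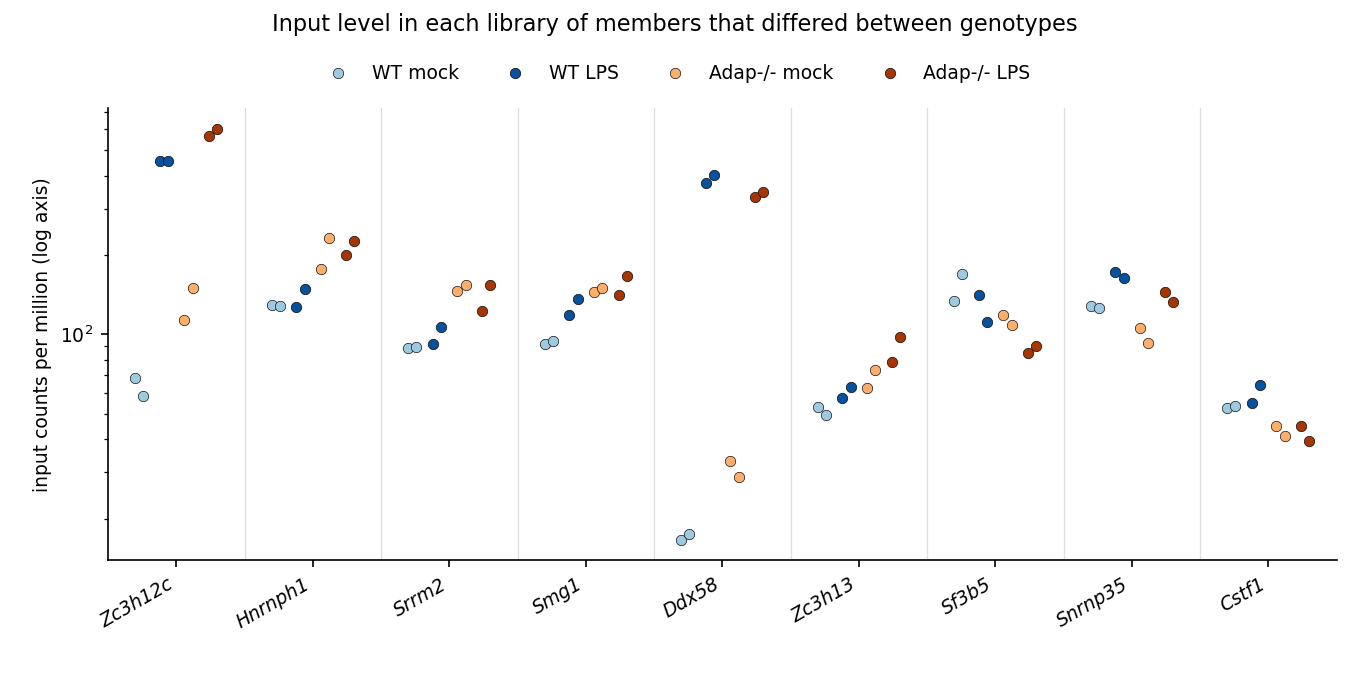
Input level (CPM, log axis) in each input library of 9 members called different between the genotypes in mock PMs, after LPS or both. For Hnrnph1 the Adap-/- libraries (177 to 232 CPM) all lie above the WT libraries (127 to 148 CPM), while for Ddx58 they do so in mock PMs only.

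The peaks of the members lay most often in coding sequence: 36.7% of the 139 peaks, against 31.7% of all 7069, with 28.1% against 33.9% at the stop codon, 17.3% against 16.03% in the 3' UTR and 16.5% against 13.6% at the start codon. A member had 1 to 6 peaks. Over the 8 pairs of IP and input libraries the median log2 ratio was −0.16 for 133 member peaks with a mean input of at least 10 reads and −0.04 for all 6595 such peaks. Since IP and input were scaled together, a ratio below 1 says that a peak was less enriched than most others, not that it was depleted. Ratios pair IP and input libraries by their replicate number, while the log2 changes use no pairs. In WT mock PMs the deviations of IP and input libraries of the same number correlated at −0.136 over these peaks, against 0.0660 to 0.148 in the other groups. The labels do not show whether the WT mock numbers are crossed. If they are, every WT mock ratio given here changes. The ratios with crossed numbers, IP replicate 1 first, were added after the data were seen. For the peaks described below they were 5.52 and 0.688 (Dhx58, lowest p), 4.10 and 0.183 (Dhx58, further peak) and 3.27 and 0.984 (Ddx58). For Zc3h12c they were 1.05 and 0.644 and for Ddx39b 0.508 and 0.424. For the Srrm2 coding peak with the lower p they were 0.633 and 0.386, and for its other coding peak 0.532 and 0.339. For Hnrnpa0 they were 0.745 and 0.645, for Rbm15b 3.01 and 4.43 and for Zc3h13 1.86 and 3.04. The highest ratios, singled out after the values were seen, were those of 2 peaks shared with neighbours, on Rbm15b and Exosc6, and 1 of the m6A writer subunit Zc3h13. The Rbm15b peak, in coding sequence, is also annotated to Manf, so that its reads cannot be assigned to either gene, and had 3.46 and 3.87 in WT mock, 2.73 and 3.93 in WT LPS, 2.96 and 3.89 in Adap-/- mock and 7.08 and 7.39 in Adap-/- LPS PMs. This peak of Zc3h13, 1 of 2 in its coding sequence, had 1.80 and 3.14 in WT mock, 3.48 and 3.34 in WT LPS, 3.44 and 1.99 in Adap-/- mock and 3.47 and 2.36 in Adap-/- LPS PMs.

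No m6A change of a member peak passed the adjusted threshold in any of the 5 comparisons with edgeR (0 of 138 peaks tested), where 0.0142% of all 7058 peaks did for Adap-/- against WT after LPS and 0% each for Adap-/- against WT in mock, for LPS in WT, for LPS in Adap-/- PMs and for the difference between the responses. DESeq2 called 1 member peak for LPS in WT, 2 for LPS in Adap-/- PMs and 0 in the other comparisons. The shares of all peaks that DESeq2 called are not given here, so these counts were not set against a background. At an unadjusted p below 0.05, with edgeR, 5 member peaks were higher and 5 lower with LPS in WT PMs (4.82% and 5.99% of all peaks), and 8 higher and 6 lower with LPS in Adap-/- PMs (5.88% and 5.62%). For Adap-/- against WT after LPS 4 were higher and 8 lower (3.05% and 4.08% of all peaks), in mock 1 was higher and 3 lower (1.09% and 1.01%), and for the difference between the responses 3 were higher and 3 lower (1.3% and 1.93%). These counts were not tested against the shares of all peaks, and no member peak passed the adjusted threshold with edgeR. The peaks named next are therefore the leading values of each comparison and not calls.

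Of the member peaks with a lower ratio after LPS in WT PMs, the 3 with the lowest p were on the RNA-sensing helicases Dhx58 and Ddx58. The Ddx58 peak did not have the next largest decrease. That of the 5' UTR peak of Ddx54 (−4.38, SE 4.03), the stop codon peak of Dhx9 (−4.14, SE 4.002) and the start codon peak of Dhx58 (−2.78, SE 2.37) was larger, with a larger SE. The coding peak of Dhx58 with the lowest p had ratios of 4.69 and 0.810 in WT mock, 0.143 and 0.0733 in WT LPS, 0.409 and 2.28 in Adap-/- mock and 0.0969 and 0.134 in Adap-/- LPS PMs. A further coding peak of Dhx58 had 3.64 and 0.206 in WT mock, 0.116 and 0.0572 in WT LPS, 0.425 and 5.18 in Adap-/- mock and 0.0728 and 0.0911 in Adap-/- LPS PMs, and the stop codon peak of Ddx58 had 4.06 and 0.792 in WT mock, 0.434 and 0.429 in WT LPS, 0.551 and 2.47 in Adap-/- mock and 0.514 and 0.545 in Adap-/- LPS PMs. On all 3 peaks WT mock replicate 1 and Adap-/- mock replicate 2 were the highest, the IP libraries that also held the other transcripts raised by LPS, while their input libraries were low. In WT PMs the log2 changes were −4.71, −4.52 and −2.38, and in Adap-/- PMs the further Dhx58 peak had −5.06 (edgeR quasi-likelihood; adjusted p = 0.215, 0.332, 0.333 and 0.298). With these mock replicates left out together, an alternative added after the data were seen, the changes were −2.95, −1.30, −0.93 and −2.43. With any 1 replicate left out they ran from −2.87 to −5.43, −1.22 to −5.39, −0.86 to −3.25 and −2.43 to −6.04. The unadjusted p of the further Dhx58 peak then rose above 0.05 in WT PMs without WT mock replicate 1 or WT LPS replicate 2. In Adap-/- PMs it did so without Adap-/- mock replicate 2 or Adap-/- LPS replicate 1. That of the Ddx58 peak did so without WT mock replicate 1 or either WT LPS replicate. The IP counts of the Ddx58 peak taken alone were higher with LPS by 2.08, and the start codon peak of Ddx58 had −1.03 in WT and 0.48 in Adap-/- PMs.

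Other leading values are given with the same 2 mock replicates left out in brackets or beside them. The 3' UTR peak of Zc3h12c had 0.635 and 1.06 in WT mock, 0.336 and 0.489 in WT LPS, 1.29 and 1.30 in Adap-/- mock and 0.430 and 0.328 in Adap-/- LPS PMs. The ratio was lower in all LPS than in all mock libraries, with a change of −1.75 in Adap-/- PMs (edgeR quasi-likelihood, adjusted p = 0.235) and of −1.80 with both mock replicates left out, while its IP counts alone gave 0.52, so that the input rose more than the IP. Its other 3 peaks had 0.36, −0.13 and −0.72 in Adap-/- PMs. Of 2 coding peaks of Srrm2, the one with the lower p had 0.611 and 0.400 in WT mock, 0.738 and 0.568 in WT LPS, 0.329 and 0.297 in Adap-/- mock and 0.735 and 0.704 in Adap-/- LPS PMs. It was higher with LPS in Adap-/- PMs by 1.20 (adjusted p = 0.235; 1.08 with both mock replicates left out) and lower in Adap-/- than in WT mock PMs (−0.70, adjusted p = 1; −0.27 with both left out, −0.35 without WT mock replicate 1, and 0.04 from IP counts alone). The other coding peak of Srrm2, the member peak with the lowest mean ratio, went the other way with LPS in Adap-/- PMs (−1.80, SE 1.61), with 0.635 and 0.284 in WT mock, 2.08 and 0.334 in WT LPS, 0.168 and 0.605 in Adap-/- mock and 0.00258 and 0.197 in Adap-/- LPS PMs. The coding peak of Smg6 was higher with LPS in Adap-/- PMs by 2.25 (adjusted p = 0.289; 1.87 with both left out), on few input reads. Leaving out 1 replicate gave 1.87 to 2.71 for Smg6, with an unadjusted p above 0.05 without Adap-/- LPS replicate 1, and −1.58 to −1.96 for Zc3h12c and 1.08 to 1.23 for Srrm2 with LPS in Adap-/- PMs, with none lost. Further leading values with LPS were higher ratios in WT PMs on peaks of Cpsf7 (0.65, then 0.65), Zc3h11a (1.52, then 1.03) and Ddx39a (1.11, then 1.44, but −1.51 from IP counts alone), all of them shared peaks. With any 1 replicate left out these ran from 0.58 to 0.72, 1.10 to 2.30 and 0.48 to 1.60. Ddx39a was at 0.48 without WT LPS replicate 1 and 0.81 without WT mock replicate 2. The unadjusted p of all 3 rose above 0.05 without WT LPS replicate 1, that of Cpsf7 and Ddx39a also without WT mock replicate 2, and that of Zc3h11a without WT mock replicate 1. Ddx39a fell with LPS in input, and the WT LPS IP libraries held 18.4% (replicate 1) and 9.87% (replicate 2) of the mock level of peaks that LPS lowered strongly. Leaving out mock replicates removes neither library, and their part in the Ddx39a value was not tested. In Adap-/- PMs Rbm15b was higher (1.10, then 1.24) and Ddx39b lower (−0.86, then −1.13). Leaving out 1 replicate gave 0.83 to 1.24 and −0.72 to −1.13, and the unadjusted p of Rbm15b rose above 0.05 without Adap-/- mock replicate 1. Between genotypes in mock PMs they were Zc3h11a (1.30, then 0.96), Zc3h10 (0.53, then 0.37), Zfp36l1 (0.97, then 0.54), Ddx54 (−0.56, then −0.48) and Hnrnpul2 (−0.85, then −0.59), with an adjusted p of 1 throughout (edgeR). Zc3h10 and Zfp36l1 were above an unadjusted p of 0.05 as well. Leaving out both mock replicates thus made all 5 of these, and Srrm2, smaller. Leaving out 1 replicate gave 0.87 to 2.12, 0.45 to 0.66, 0.68 to 1.41, −0.43 to −0.62 and −0.55 to −1.12 (0.87 for Zc3h11a and −0.55 for Hnrnpul2 without WT mock replicate 1). An unadjusted p below 0.05 was then kept in 1 of 8 settings for Zc3h11a, 3 for Hnrnpul2, 5 for Srrm2 and 6 for Ddx54.

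Between genotypes after LPS the lowest p belonged to the start codon peak of Ddx39b, a helicase of splicing and mRNA export, with ratios of 0.459 and 0.469 in WT mock, 0.712 and 0.669 in WT LPS, 0.674 and 0.503 in Adap-/- mock and 0.314 and 0.320 in Adap-/- LPS PMs. Both Adap-/- LPS libraries lay below all others, and the difference from WT LPS was −1.12 (edgeR quasi-likelihood, adjusted p = 0.36), with −1.08 to −1.17 when 1 replicate was left out. The same peak led the difference between the LPS responses (−1.44, adjusted p = 1; −1.64 with both mock replicates left out), as its ratio was higher with LPS in WT and lower in Adap-/- PMs. Ddx54 (0.94, then 0.87), Rbm15b (1.24, then 1.49), Exosc6 (1.23, then 1.27), Rbm25 (−1.36, then −1.13) and Rbm12 (−1.43, then −1.004) followed in that difference. Leaving out 1 replicate gave 0.72 to 1.13, 1.004 to 1.54, 0.94 to 1.56, −0.85 to −1.81 and −1.03 to −1.80, with Rbm25 lowest in size without WT LPS replicate 1. The unadjusted p stayed below 0.05 in all 8 settings for Ddx54 and Ddx39b, but in 3 for Rbm15b, 2 for Exosc6 and 4 each for Rbm25 and Rbm12. Low ratios were more frequent among member peaks in Adap-/- than in WT LPS libraries, as given above. Both coding peaks of Rbm25, a splicing regulator, were lower in Adap-/- LPS PMs (−1.46 and −1.16, edgeR quasi-likelihood, adjusted p = 0.379 and 0.607). Leaving out 1 replicate gave −0.95 to −1.91 and −0.76 to −1.81. The smallest was without WT LPS replicate 1 for the first and without Adap-/- LPS replicate 2 for the second. The unadjusted p of the second rose above 0.05 with WT LPS replicate 1 or WT LPS replicate 2 left out. The stop codon peak of Hnrnpa0, which binds AU-rich elements, went up, with 0.733 and 0.656 in WT mock, 0.760 and 0.741 in WT LPS, 0.687 and 1.18 in Adap-/- mock and 1.27 and 2.07 in Adap-/- LPS PMs, a difference of 1.11 after LPS (adjusted p = 0.525; 0.76 without Adap-/- LPS replicate 2, where the unadjusted p rose above 0.05). The coding peak of Rbm15b given above and 1 of 2 stop codon peaks of Exosc6 were higher as well (1.10 and 1.19, adjusted p = 0.525 and 0.566), with 0.88 to 1.40 and 0.91 to 1.54 when 1 replicate was left out. The unadjusted p of Exosc6 rose above 0.05 without WT LPS replicate 2 or Adap-/- LPS replicate 2. The other Exosc6 peak had −0.16 and the other 2 peaks of Rbm15b 0.51 and −0.09. Without Adap-/- LPS replicate 2, 20 member peaks had an unadjusted p below 0.05 in this comparison, and without WT LPS replicate 1, 5 did, in place of 12.

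**Figure D5:**
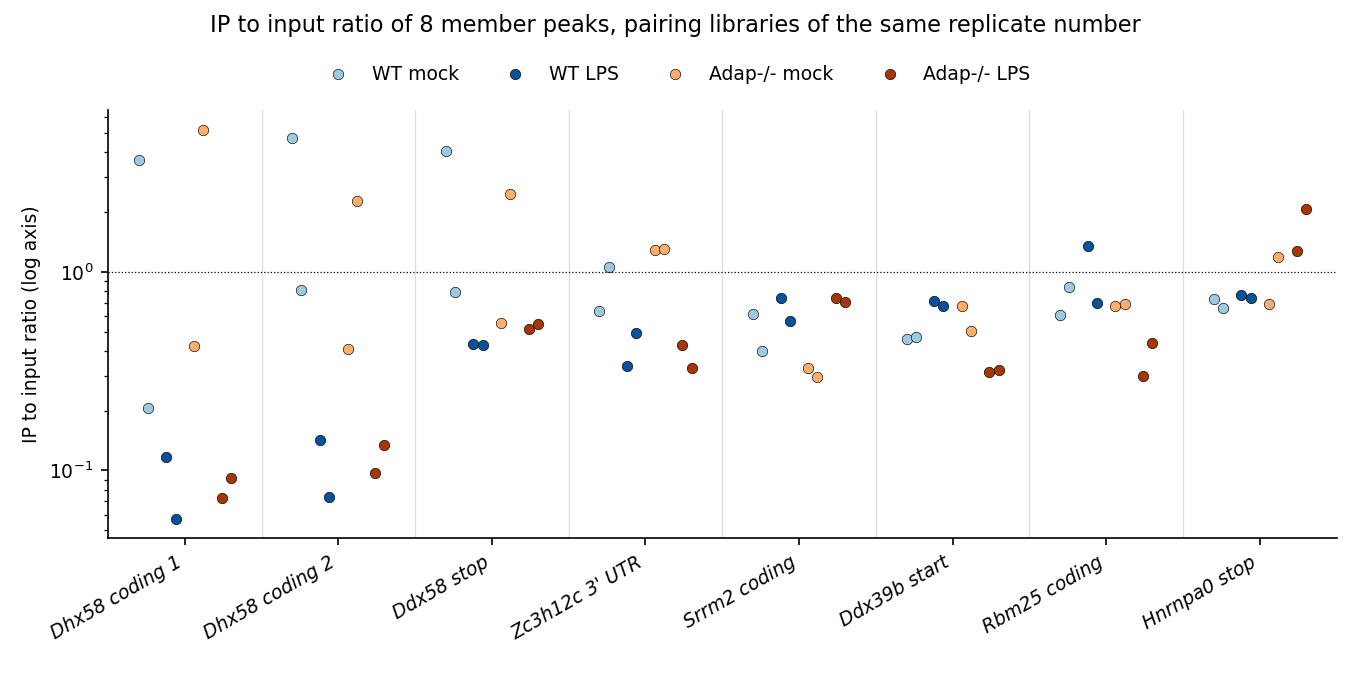
IP to input ratio (log axis; dotted line at 1) of 8 member peaks, with IP and input libraries of the same replicate number paired. On both Dhx58 coding peaks and the Ddx58 stop codon peak, WT mock replicate 1 and Adap-/- mock replicate 2 lie far above the other mock library of their group, and on the Ddx39b start codon peak both Adap-/- LPS libraries (0.314 and 0.320) lie lowest.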

How the data were processed

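The authors deposited raw read counts on merged m6A peaks for input and IP libraries, made, per the submitters' processing notes, with Bowtie2 2.2.8, MACS2 2.1.2 and DiffBind 2.8 on GRCm39. The analysis plan expected gene counts, but the deposited counts are per peak, so input counts were added up over all peaks of a gene. Input libraries held 2121313 to 4325961 reads on peaks and IP libraries 5728590.0 to 19030373. Genes and peaks were kept by filterByExpr (minimum count 10, total 15; 201 genes and 11 peaks left out), scaled by TMM and fitted with edgeR quasi-likelihood, with all groups in 1 fit and Benjamini-Hochberg adjustment over all genes or peaks. The biological coefficient of variation was 8.82% for input genes and 30.6% for peaks. m6A changes were tested as the interaction of IP or input with group. Named genes were the called members with replicates that did not overlap (first 10 in each direction for LPS, first 5 between genotypes), members of a list of 51 symbols, and the 3 peaks with the lowest p in each direction and comparison. For genes named by the first rule a lack of overlap was required and adds nothing to the call. Members and lists were chosen with earlier results of these data known. Alternatives were DESeq2, other scalings and filters, a replicate block, only the libraries compared, single-gene peaks, IP counts alone and leaving out each replicate. Promoters were from RefSeq (GRCm38.p6). R 4.3.3, edgeR 4.0.16, limma 3.58.1, DESeq2 1.42.0, Python 3.11.15, pandas 2.3.3, numpy 2.4.6 and matplotlib 3.10.9 were used.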

Additional observations from a re-analysis of the deposited data

Results flagged for a closer look

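The input level of Ddx58 showed a difference between groups in its LPS response, which was smaller in Adap-/- than in WT PMs by −1.05 on the log2 scale. It was the only member called in that comparison by edgeR; DESeq2 called Zc3h12c (−0.71) as well, and without Adap-/- mock replicate 1 edgeR called Zc3h12c (−0.87) and not Ddx58 (−0.93).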

How the results depend on the processing

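Of the log2 changes of named genes in input, 880 values kept direction and side of the threshold under an alternative, 108 were weaker and 2 reversed; of those of named peaks 427 were the same, 97 weaker, 6 stronger and 4 reversed. With 2 replicates a group, a change near the threshold rests on single libraries, and members with few reads were not measured well. Where a result moved, the cause was not tested.

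For input, the number of members called between genotypes after LPS was 7, but 2 with DESeq2 and 0 to 10 with 1 replicate left out. With a log2 change above 1 also required it was 0, where 64 of all 4742 genes were higher and 55 lower. In mock PMs it was 11 of 78, but 5 with DESeq2 and 5 to 11 with 1 replicate left out. It was 7 with only the libraries compared, and 7 of 59 tested with only peaks annotated to 1 gene. With a log2 change above 1 it was 1, where 79 of all genes were higher and 44 lower. For LPS in WT PMs it was 34 of 78, but 20 of 59 tested with only peaks annotated to 1 gene. With a log2 change above 1 it was 11 (7 higher and 4 lower, against 876 and 702 of all 4742 genes). Upper-quartile scaling gave 40, of which 12 were higher and 28 lower. For LPS in Adap-/- PMs it was 33, but 20 to 33 with 1 replicate left out. With a log2 change above 1 it was 9 (7 higher and 2 lower, against 792 and 583 of all 4742 genes). Upper-quartile scaling gave 31, of which 10 were higher and 21 lower. For the difference between the LPS responses it was 1, but 2 with DESeq2 and 1 to 2 with 1 replicate left out; taking only the libraries compared is the same fit there. Edc3 reversed with only peaks annotated to 1 gene, to −0.38 in WT and −0.27 in Adap-/- PMs. With the replicate block the counts were 7, 10, 34, 33 and 1. Counts for which no share of all genes is given, here or above, are no result about members in particular.

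For m6A, the adjusted count was 0 in all comparisons, but 1 with DESeq2 and 10 with IP counts alone for LPS in WT PMs, and 2 and 7 for LPS in Adap-/- PMs. The shares of all peaks called in these settings are not given here, so the counts are no result about members in particular. At an unadjusted p below 0.05, with 1 replicate left out, the 12 peaks between genotypes after LPS became 5 to 20, the 4 in mock PMs 1 to 8, the 10 for LPS in WT PMs 4 to 11 and the 6 for the difference between the responses 3 to 9. In mock PMs DESeq2 gave 2, only the libraries compared 2, IP counts alone 11, and both carrying mock replicates (WT replicate 1 and Adap-/- replicate 2) left out together 2. IP counts alone gave 16 for LPS in WT and 24 in place of 14 in Adap-/- PMs. IP counts alone, which also hold the change in level, reversed Srrm2 between genotypes in mock PMs (0.0436), Ddx39a (−1.51) and Ddx58 (2.08) for LPS in WT, and Zc3h12c (0.52) for LPS in Adap-/- PMs. With the replicate block the unadjusted counts were 10, 4, 8, 13 and 6, in the order genotype after LPS, genotype in mock, LPS in WT, LPS in Adap-/- and difference, and the adjusted ones 0.

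Replicates of the same number were not clearly paired: across groups the input deviations correlated at −0.0889 to 0.166 over 4742 genes, and those of IP and input at −0.136 in WT mock, 0.148 in WT LPS, 0.0660 in Adap-/- mock and 0.100 in Adap-/- LPS PMs over 6595 peaks. The labels do not show whether the WT mock numbers are crossed; if they are, every WT mock ratio changes, while the fit uses no pairs. A block for each RNA sample with the numbers of the WT mock IP libraries crossed, chosen after the data were seen, gave 13, 4, 8, 16 and 5 peaks at an unadjusted p below 0.05 and 0 adjusted. Leaving out both carrying mock replicates, also chosen after the data were seen, gave 17, 2, 9, 19 and 5, and 0 adjusted.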
